A study of Mus musculus with 12 samples.

Results

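The 4 Hox gene clusters of the mouse were examined for acetylation of histone H4 (H4ac) in C2C12 cells, an established myoblast line. Members were all listed H4ac peaks that overlap 4 windows of the mm9 genome build, chosen by position and not by any measured value. These are chromosome 6 from 52090000 to 52220000 (Hoxa, 130 kb), chromosome 11 from 96040000 to 96240000 (Hoxb, 200 kb), chromosome 15 from 102740000 to 102890000 (Hoxc, 150 kb) and chromosome 2 from 74490000 to 74620000 (Hoxd, 130 kb). They held 228 of the 85369 peaks in the 6 lists. After overlapping or touching peaks were merged across libraries, these formed 64 of 31891 union regions, of which 23 lay in Hoxa, 41 in Hoxc and 0 in Hoxb and in Hoxd.

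The cells had been transduced with lentivirus carrying either an MLX-DN construct or an MLX-WT construct, and chromatin was immunoprecipitated with a rabbit antibody against H4ac. Each group had 3 H4ac libraries, each with its own peak list. Input libraries were not analysed here. The labels do not spell out DN, and 1 of their fields describes those cells as MLX down. Peak names carry a tag for the presence of glucose, which both groups share. The growth protocol also mentions empty vector and non-targeting shRNA controls, which were not analysed here, so every comparison is between the constructs and none is with untransduced cells. Whether the replicates came from separate cultures is not stated by the labels, and p-values here reflect only the spread among these libraries, possibly a technical one.

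Hox genes encode homeodomain transcription factors that give cells along the body axis their regional identity. Their order along a chromosome follows the order of the body regions in which they act, and adult cells of mesodermal origin often keep a position-specific combination of active Hox genes. Acetylated histone H4 marks accessible chromatin at active promoters and enhancers, and silent Hox clusters are usually held by Polycomb repression without it. MLX is a bHLH leucine zipper protein that binds E-boxes with MondoA, ChREBP or Mad-family partners, and the MondoA and ChREBP dimers respond to glucose metabolites.

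The windows name 38 genes, 10 in Hoxa, 10 in Hoxb, 9 in Hoxc and 9 in Hoxd. In the RefSeq table of GRCm38.p6, gene order from the low to the high coordinate runs from Hoxa2 to Hoxa13, from Hoxb13 to Hoxb1, from Hoxc13 to Hoxc4 and from Hoxd13 to Hoxd1. No mm9 annotation was used, so the lists were compared by window and distance, no peak was given to a gene, and markers of myoblast identity were not examined.

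Sequence was read from RefSeq promoter records (GRCm38.p6, 250 bases before to 50 after a gene's start), because MLX dimers bind E-boxes. Of the 38 genes, 22 matched, with 24 promoters: 9 genes of Hoxa, 3 of Hoxb, 1 of Hoxc and 9 of Hoxd. The E-box CACGTG, which reads the same on both strands, was searched. It occurred in 5 of the 24 Hox promoters (20.8%), against 7.15% of all 32851 promoters in the table. All 5 belonged to Hoxd, which supplied 10 of the 24 promoters and had no listed H4ac peak in any library. The motif holds a CpG dinucleotide, and Hox promoters had a median of 14.5 of these against 7.0 over all promoters. The part of CpG number in the motif share was not tested. The excerpts below are shown so that the letters around each motif can be read, with the motif in capitals and 20 bases to each side.
Hoxd1: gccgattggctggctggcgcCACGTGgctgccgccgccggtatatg
Hoxd10: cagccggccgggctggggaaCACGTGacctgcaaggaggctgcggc
Hoxd11: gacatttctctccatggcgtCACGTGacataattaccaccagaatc
Hoxd13: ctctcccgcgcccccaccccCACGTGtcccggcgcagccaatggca
Hoxd4: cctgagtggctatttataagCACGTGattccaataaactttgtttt
The first base of the motif lay 21, 73, 96, 229 and 2 bases before the start in the order shown. A match is a description of letters, not evidence that a factor is bound there.

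Hoxb4, Hoxc4 and Hoxd4 are paralogues, copies of an ancestral gene at the same position in different clusters. Their promoters are printed whole because 1 lies in a cluster with H4ac peaks and the other two in clusters without. Capitals mark CACGTG.
Hoxb4: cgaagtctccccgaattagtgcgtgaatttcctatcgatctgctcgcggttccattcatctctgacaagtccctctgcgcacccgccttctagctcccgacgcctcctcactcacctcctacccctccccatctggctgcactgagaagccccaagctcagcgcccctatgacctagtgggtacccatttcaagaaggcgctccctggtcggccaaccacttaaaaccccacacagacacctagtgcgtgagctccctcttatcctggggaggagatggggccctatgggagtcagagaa
Hoxc4: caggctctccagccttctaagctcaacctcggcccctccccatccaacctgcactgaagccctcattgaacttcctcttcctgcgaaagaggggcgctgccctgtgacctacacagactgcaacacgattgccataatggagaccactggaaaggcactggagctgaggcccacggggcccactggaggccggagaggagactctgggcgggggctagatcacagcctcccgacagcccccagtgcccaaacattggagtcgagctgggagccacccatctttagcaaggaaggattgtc
Hoxd4: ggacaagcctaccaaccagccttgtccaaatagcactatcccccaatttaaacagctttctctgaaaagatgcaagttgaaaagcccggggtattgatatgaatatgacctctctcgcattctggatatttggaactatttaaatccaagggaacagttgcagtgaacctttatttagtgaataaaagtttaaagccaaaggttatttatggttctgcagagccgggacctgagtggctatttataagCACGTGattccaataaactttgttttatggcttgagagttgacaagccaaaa
Only Hoxd4 held the motif among these 3 records. The median number of CpG dinucleotides per promoter was 17.5 in Hoxa, 13 in Hoxb, 9 in Hoxc (1 promoter) and 20 in Hoxd, against 7.0 over all promoters. In these records CpG number did not separate the clusters with peaks from those without.

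The clusters also hold microRNAs, which are printed to show which seeds the clusters share. Capitals mark the seed, bases 2 to 8 of the mature sequence.
miR-10a-5p: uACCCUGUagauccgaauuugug
miR-10b-5p: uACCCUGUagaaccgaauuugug
miR-196a-5p: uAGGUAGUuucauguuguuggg
miR-196b-5p: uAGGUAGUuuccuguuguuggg
The gene of miR-10a-5p lies in Hoxb and that of miR-10b-5p in Hoxd, both without listed H4ac. The 2 genes of miR-196a-5p lie in Hoxb and Hoxc, and that of miR-196b-5p in Hoxa. The miR-196 seed was thus shared by Hoxa and Hoxc, which had peaks, and by Hoxb, which had none.

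The lists differed in length as a whole, and this bears on every count below. The lists of MLX-DN replicates 1, 2 and 3 held 15201, 24811 and 16898 peaks, those of MLX-WT replicates 5385, 13652 and 9422, with a ratio of the geometric means of 2.10 (log2 1.07, exact permutation test, two-sided, p = 0.10). With 3 libraries against 3 this test cannot go below 0.10. Sequencing depth recovered from the lists ran from 3.299 to 3.90 reads per 250 bp, and a peak needed 12 to 14 reads at the genome-wide background to enter a list. MLX-WT replicate 1 had the shortest list.

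H4ac was listed in Hoxa and Hoxc and not in Hoxb and Hoxd. Both groups showed this pattern. The plots of peaks and covered length show it library by library.

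**Figure D1:**
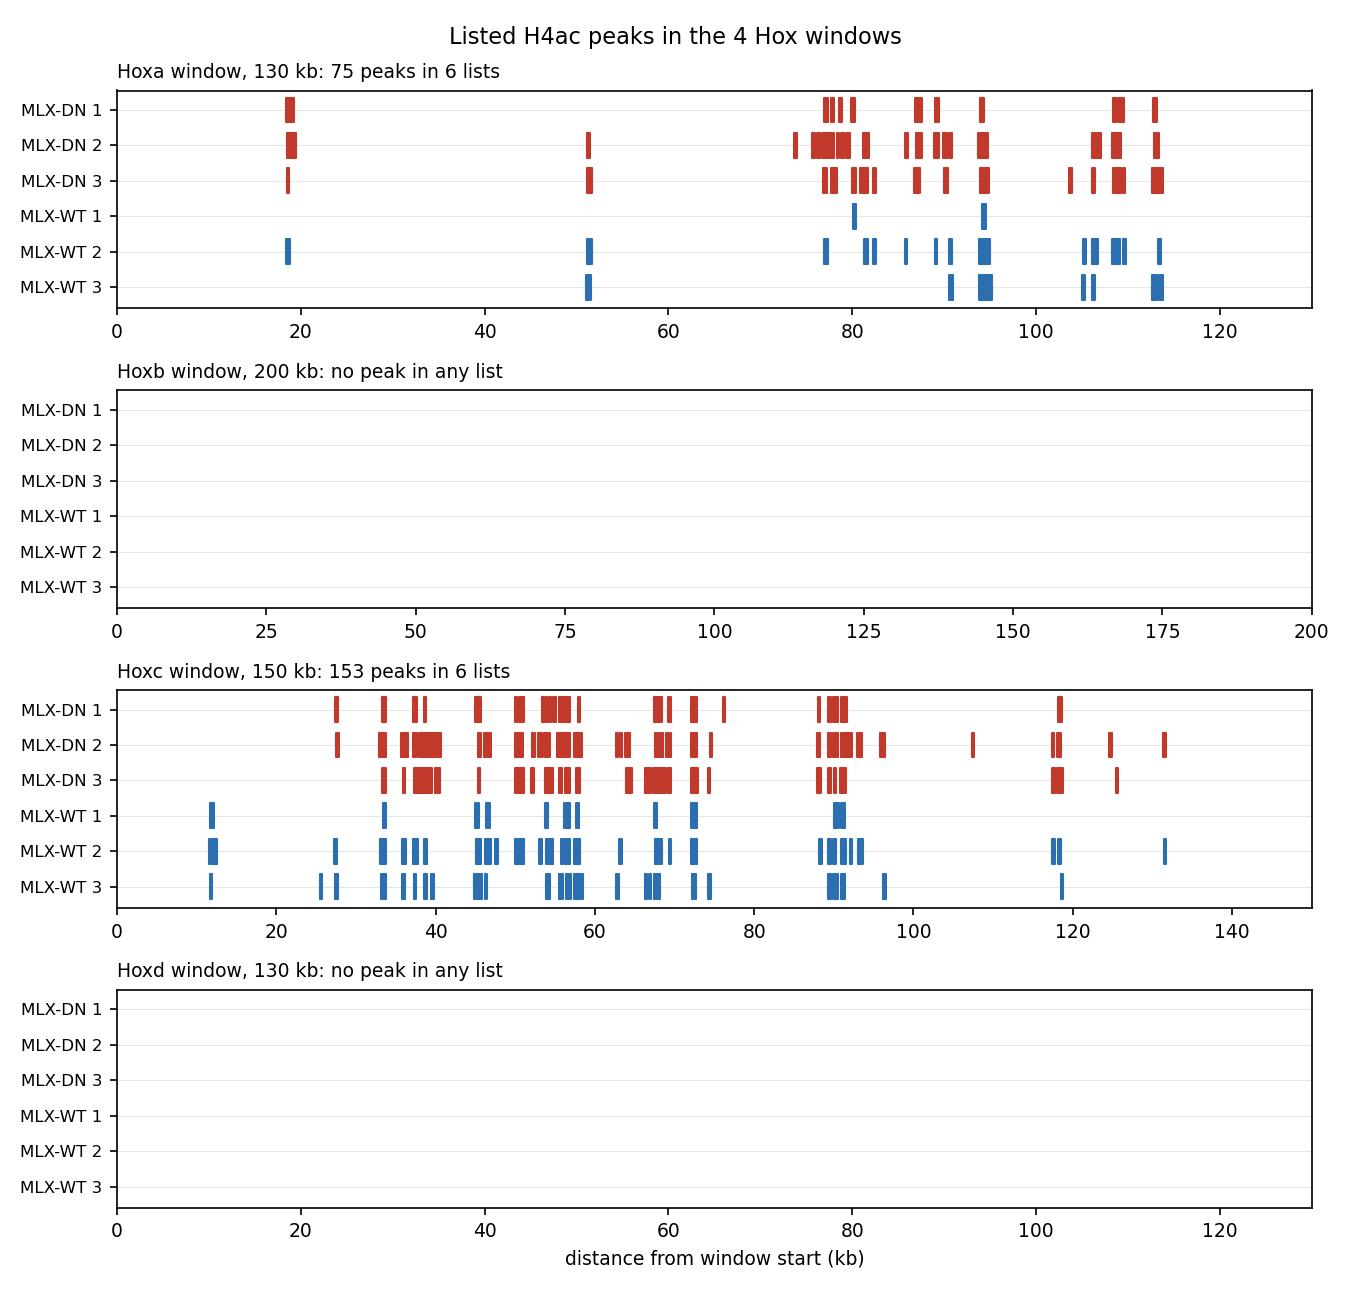
Positions of listed H4ac peaks along the 4 Hox windows, 1 row per library (red MLX-DN, blue MLX-WT), with distance from the window start in kb on the horizontal axis. Hoxa held 75 peaks and Hoxc 153, and the Hoxb and Hoxd panels are empty in all 6 libraries.

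Hoxc peaks numbered 21, 37 and 28 in the 3 MLX-DN lists, and 12, 29 and 26 in the 3 of MLX-WT. Hoxa peaks numbered 13, 21 and 18, and 2, 14 and 7. Hoxc therefore held more peaks than Hoxa in each of the 6 libraries. Covered length, the base pairs under a listed peak, was 10893, 20905 and 15651 bp in Hoxc for MLX-DN and 5353, 15103 and 11636 bp for MLX-WT. In Hoxa it was 5309, 10692 and 8128 bp for MLX-DN and 795, 6569 and 3925 bp for MLX-WT. Covered length took 3.57% to 13.9% of the Hoxc window and 0.612% to 8.22% of the Hoxa window.

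**Figure D2:**
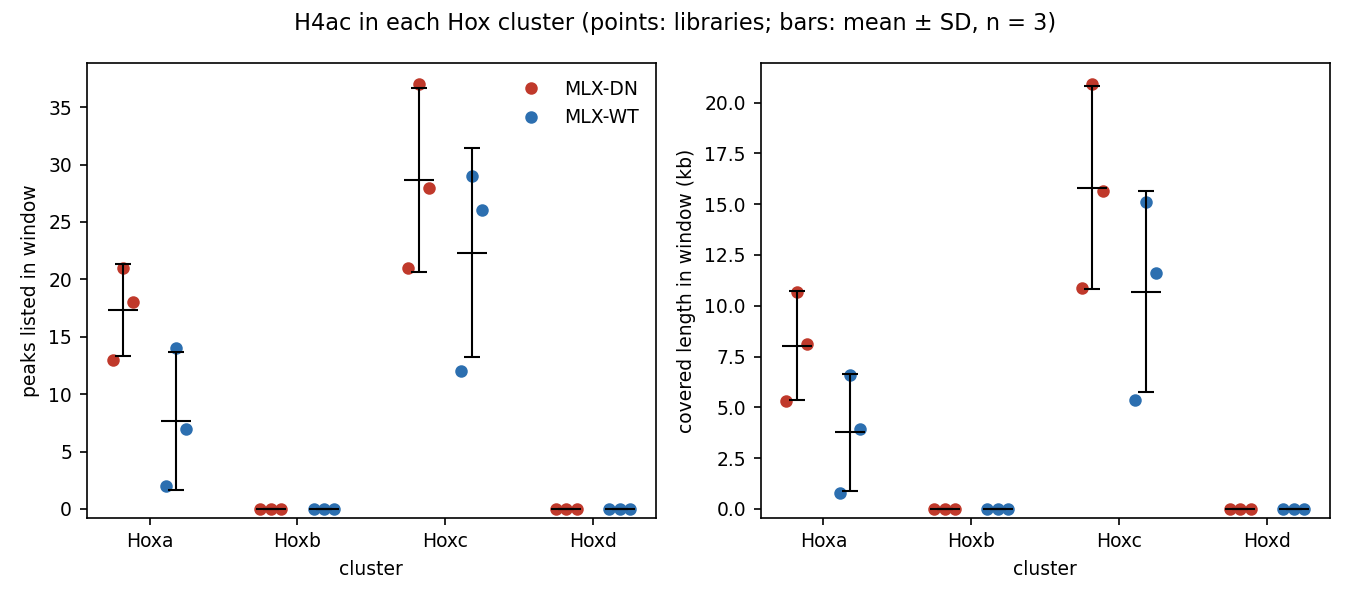
Peaks listed (left) and covered length in kb (right) in each cluster; points are libraries, horizontal bars the group mean and vertical bars the SD (n = 3 per group). In Hoxa and Hoxc the MLX-DN and MLX-WT points overlap, and Hoxb and Hoxd are at 0.

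Per 100 kb of window, Hoxa carried less cover than Hoxc, with a difference of -4297 ± 1075 bp (SD, n = 6; lower in 6 of 6 libraries). The exact sign-flip test over libraries, two-sided, gave p = 0.03125, the smallest value it allows with 6 libraries, and 0.0375 after Benjamini-Hochberg adjustment over 6 pairs of clusters. Cover above that of Hoxb and Hoxd, which were at 0 in every library, averaged 4541 ± 2635 bp per 100 kb in Hoxa and 8838 ± 3506 bp per 100 kb in Hoxc. These are descriptions, because against a cluster at 0 the sign of every difference is fixed. Hoxb and Hoxd could not be ordered. When peaks were required to reach a −log10 q of 5, the exact adjusted p for Hoxa against Hoxc became 0.0625. Hoxa stayed below Hoxc in every library. The adjustment includes the pairs with a cluster at 0, and MLX-WT replicate 1 then had no Hoxa cover. The adjusted values therefore depend in part on differences of fixed sign. The control background beneath listed peaks also differed between the chromosomes of Hoxa and Hoxc. It was taken at regions outside the windows that all 6 libraries listed, relative to the mean over such regions in the genome. The group means, MLX-DN first, were 1.15 and 1.45 for chromosome 15. For chromosome 6 they were 0.970 and 1.02. The part of background in the difference between Hoxa and Hoxc was not tested.

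The windows of Hoxb and Hoxd, with 19 genes, were free of listed peaks. The same lists held 514 to 2235 peaks on chromosome 11 and 459 to 1853 on chromosome 2. The nearest peak in any list lay 101.8 kb below and 35.5 kb above the Hoxb window, so that 337.33 kb were without a peak. For Hoxd the distances were 72.3 and 43.5 kb, within 245.8 kb without a peak. Gaps as long made up 4.32% and 5.6% of all 31871 gaps between union regions, whose median was 7.393 kb. A window of this size without a peak was common in the genome, at 54.9% of 12764 windows of 200 kb and 61.6% of 19649 windows of 130 kb. Hoxb and Hoxd thus differed from Hoxa and Hoxc but not from most windows of their size, and H4ac below the listing threshold would not be seen.

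Hoxa and Hoxc were dense against that background. As many union regions as in Hoxa (23) occurred in 0.290% of 130 kb windows (57 of 19649), and as many as in Hoxc (41) in 0.0235% of 150 kb windows (4 of 17027). Outside the windows, the nearest peaks lay far off except above Hoxc, where the distance was close to the median gap of 7.393 kb. The nearest listed peak lay 73.0 kb below and 369.8 kb above the Hoxa window and 69.0 kb below and 8.99 kb above the Hoxc window.

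Peaks were not spread evenly along either cluster. In Hoxa, the first 2 regions stood apart, separated by stretches of 31.6 and 21.9 kb without a peak, and the other regions began 73.6 kb from the window start. Between the regions of Hoxc, the longest stretches without a peak were 12.8, 11.6, 10.8 and 9.78 kb. Hoxc regions began 11.6 to 131.4 kb from the start of the 150 kb window, whose first and last 10 kb held no peak. They were thus spread over most of the window but did not reach its ends. Within the groups of peaks, neighbouring regions lay close together, with a median gap of 649.5 bp in Hoxa and 700.0 bp in Hoxc.

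Hoxc was covered most between 50 and 60 kb from the window start in all 6 libraries. MLX-DN libraries covered 3633, 5261 and 4159 bp there and MLX-WT libraries 1360, 4069 and 2813 bp, which was 24.2% to 33.4% of the Hoxc cover of a library. Of 15 bins of 10 kb in Hoxc, 13 held a peak in some library and 6 held a peak in all 6. Of 13 bins in Hoxa, 7 held a peak in some library and 1 in all 6.

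Between the groups, 2 of the 7 occupied Hoxa bins had more cover in every MLX-DN than in every MLX-WT library. At 70 to 80 kb the MLX-DN libraries covered 1292, 3087 and 1207 bp and the MLX-WT libraries 0, 405 and 0 bp. At 80 to 90 kb the values were 1404, 2117 and 2141 bp against 292, 1229 and 0 bp. Over the genome 18.5% of occupied 10 kb bins had this order, so 2 of 7 is a description of where Hoxa separated. In Hoxc 0 of 13 occupied bins had this order. The reverse, more cover in every MLX-WT library, occurred in 1 of 13 Hoxc bins against 0.406% of occupied bins in the genome. That bin, 10 to 20 kb from the window start, held 450, 954 and 285 bp in MLX-WT and 0 in each MLX-DN library. Bins were not tested singly.

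**Figure D3:**
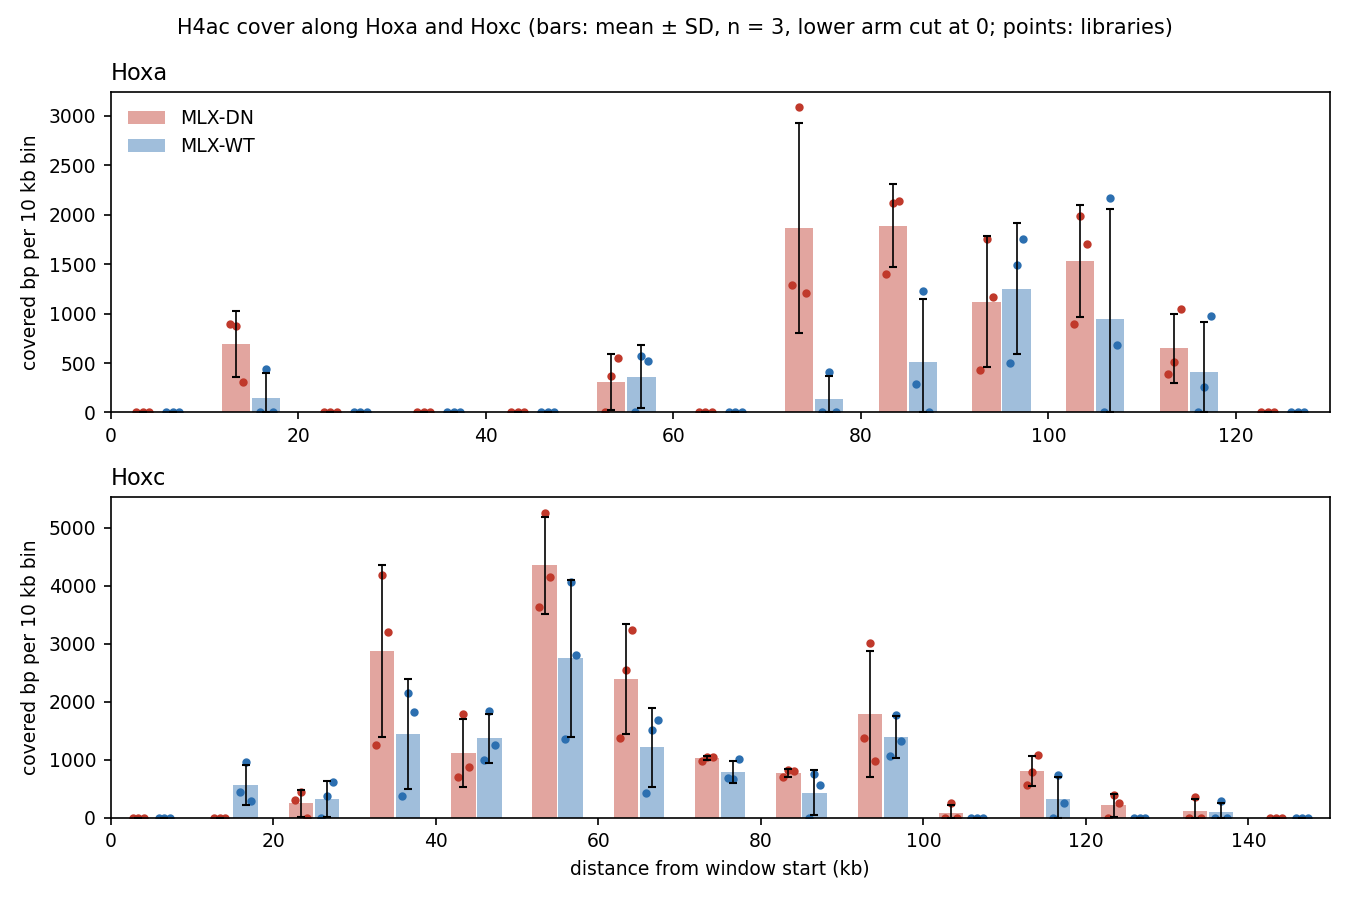
Covered base pairs in 10 kb bins along Hoxa and Hoxc, by distance from the window start in kb; bars are group means, black lines the SD (n = 3, lower arm stopped at 0) and points the libraries. Hoxa separates the groups at 70 to 90 kb, and Hoxc is covered most at 50 to 60 kb in both groups.

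For the 4 clusters together, there were 34, 58 and 46 peaks with MLX-DN, and 14, 43 and 33 with MLX-WT. The means were 46 ± 12 and 30 ± 14.7 (SD, n = 3), and the groups overlapped. The log2 difference, here and below taken between the group means of log2 values, was 0.73 (exact permutation test, two-sided, p = 0.20). Covered length was 16202, 31597 and 23779 bp against 6148, 21672 and 15561 bp (log2 0.85, exact permutation p = 0.20), again with overlap. In each measure the difference of the means was larger than the SD of either group, but the exact test did not reach 0.05.

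Mean Hoxa peak number was 17.3 ± 4.04 with MLX-DN and 7.67 ± 6.03 with MLX-WT (n = 3, SD). The difference between the means of log2 values was 1.55 (exact permutation p = 0.20, adjusted 0.80 over the 4 clusters). The difference rested in part on MLX-WT replicate 1, with 2 peaks, while MLX-WT replicate 2, with 14, narrowed it. Without MLX-WT replicate 1 the log2 difference in peaks was 0.78, and without MLX-WT replicate 2 it was 2.18. Hoxc listed 28.7 ± 8.02 and 22.3 ± 9.07 peaks, a log2 difference of 0.42 (exact permutation p = 0.50, adjusted 1.0). Neither cluster separated the groups in the number of peaks.

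Because the MLX-DN lists were longer, each cluster was also expressed as a share of its list. Hoxc took 0.138%, 0.149% and 0.166% of all peaks in MLX-DN against 0.223%, 0.212% and 0.276% in MLX-WT. No MLX-WT library was as low as the highest of MLX-DN, and the means were 0.237 ± 0.0341 and 0.151 ± 0.0139 (n = 3, SD; exact permutation p = 0.10, adjusted 0.40 over the 4 clusters). Of all covered base pairs it took 0.25 ± 0.0271% in MLX-WT and 0.166 ± 0.0199% in MLX-DN, without overlap (exact permutation p = 0.10, adjusted 0.40). Among the peaks of chromosome 15 alone, Hoxc took 2.82%, 2.96% and 3.80% in MLX-WT and 2.49%, 2.58% and 2.78% in MLX-DN (exact permutation p = 0.10). The covered base pairs of that chromosome gave overlapping shares, 3.11 ± 0.392% and 2.75 ± 0.222% (exact permutation p = 0.30). The MLX-WT mean was 1.57 times the MLX-DN mean for the share of all peaks, but 1.22 times for peaks of the chromosome. For covered base pairs these ratios were 1.51 and 1.13. Part of the difference therefore lay in the share of the list that chromosome 15 took as a whole, and was not particular to Hoxc.

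In Hoxa the groups overlapped in this measure. Hoxa took 0.0855%, 0.0846% and 0.107% of all peaks in MLX-DN against 0.0371%, 0.103% and 0.0743% in MLX-WT (exact permutation p = 0.40). Hoxc held 1.62, 1.76 and 1.56 times as many peaks as Hoxa in MLX-DN against 6.0, 2.07 and 3.71 times as many in MLX-WT. The ratio was higher in every MLX-WT library (log2 MLX-DN minus MLX-WT -1.13, exact permutation p = 0.10), a measure added after the values were seen. The highest ratio, in MLX-WT replicate 1, rests on 2 Hoxa peaks.

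**Figure D4:**
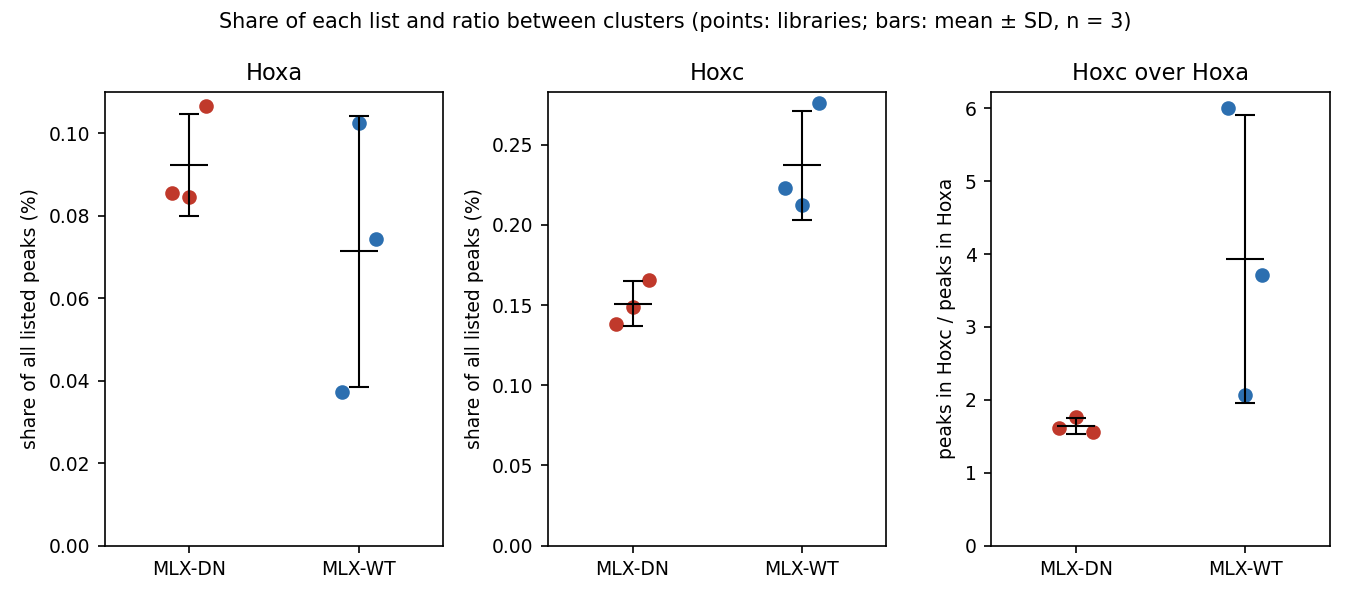
Share of all listed peaks in Hoxa and in Hoxc, in percent, and the ratio of Hoxc to Hoxa peaks; points are libraries, horizontal bars the group mean and vertical bars the SD (n = 3). Every MLX-WT library lies above every MLX-DN library for the Hoxc share and for the ratio, and the groups overlap for the Hoxa share. Part of the difference in the Hoxc share belongs to its chromosome as a whole.

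When each list was shortened to its 5385 best peaks by −log10 q, as many as MLX-WT replicate 1 listed, the Hoxc share no longer separated the groups, at 0.161 ± 0.0652% in MLX-DN against 0.254 ± 0.0387% in MLX-WT (n = 3, SD; exact permutation p = 0.20). The share of chromosome 15 peaks overlapped as well (exact permutation p = 0.50). The control background beneath the peaks also moved with the groups. At the 9 Hoxc regions listed by all 6 libraries, the background relative to the mean over such regions in the genome was 1.01, 0.913 and 1.10 in MLX-DN against 1.44, 1.42 and 1.14 in MLX-WT. The means, 1.01 ± 0.0926 and 1.33 ± 0.165 (SD, n = 3), did not overlap (exact permutation p = 0.10). Such regions elsewhere on chromosome 15 showed the same order, 1.15 ± 0.0272 and 1.45 ± 0.0260. A higher background raises the reads a peak needs, and its part in the Hoxc values was not tested.

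Regions were next counted by the libraries that listed them. Of the 64 Hox regions, 41 (64.1%) were listed by at least 1 library of each group, against 38.8% of all union regions. In Hoxa this was 13 of 23 (56.5%) and in Hoxc 28 of 41 (68.3%). With lists of equal length the shares were close, 17 of 35 Hox regions (48.6%) and 47.0% in the genome. Of the Hox regions that any MLX-WT library listed, 89.1% were also listed by an MLX-DN library, against 80.0% in the genome. Of those that any MLX-DN library listed, 69.5% were also listed by an MLX-WT library, against 43.0% in the genome. On the rest of chromosome 15 these shares were 74.5% and 50.3%, and on the rest of chromosome 6 they were 79.8% and 45.0%. Only 16 Hox regions (25.0%) were listed by a single library, against 42.9% in the genome. Hox regions were also wider, with a median of 562 bp against 456 bp, and 12 of 64 (18.8%) were over 1 kb, against 10.7% in the genome.

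All 6 libraries listed 10 Hox regions (15.6%, against 9.74% in the genome), 9 in Hoxc and 1 in Hoxa. On the rest of chromosome 15 the share was 13.4% and on the rest of chromosome 6 it was 11.4%. The Hox share was below that of the genome at equal list length (4 of 35, 11.4%, against 12.1%), at a −log10 q of at least 5 (4 of 53, 7.55%, against 8.91%) and when peaks had to cover 50% of a region (1 of 64, 1.56%, against 3.47%). Of regions present in the 3 MLX-DN lists and absent from MLX-WT there were 2 (3.13%, against 6.10%), both in Hoxa. The reverse pattern held for 1 region, in Hoxc (1.56%, against 0.166% in the genome and 0.495% on the rest of chromosome 15). Regions listed by MLX-DN libraries only, in any number, were 18 (28.1%, against 51.5%), and by MLX-WT libraries only, 5 (7.81%, against 9.70%). On the rest of chromosome 15 these shares were 42.4% and 14.7%, and on the rest of chromosome 6 they were 49.4% and 10.2%. At equal list length those listed by MLX-DN only were 6 of 35 (17.1%, against 25.8%) and those by MLX-WT only 12 of 35 (34.3%, against 27.2%). The counts for single patterns are small and shifted with the choice of libraries. Without MLX-WT replicate 2, regions of the MLX-DN kind numbered 8 of 63 (12.7%, against 10.6%), above the genome's share, and without MLX-DN replicate 1 they numbered 5 of 66 (7.58%, against 12.5%). Without MLX-DN replicate 2, regions of the MLX-WT kind numbered 2 of 62 (3.23%, against 0.489%). Without MLX-WT replicate 1 they numbered 2 of 64 (3.13%, against 0.790%).

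Regions are numbered from the low-coordinate end of each window. The authors' fold over background is given for each library, MLX-DN replicates 1 to 3 first, as a description of the peak in its own list. It was not tested between groups.

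In Hoxc, the region with the steadiest high rank was Hoxc 5 (chromosome 15 from 102772931 to 102773826). Its fold was 5.38, 6.12 and 4.90 in MLX-DN against 3.51, 4.20 and 5.19 in MLX-WT. In every list it ranked in the upper part, between the 83.2 and the 96.3 percentile of −log10 q, and the summits of the 6 libraries lay within 104 bp. Both groups therefore placed a strong peak at the same position.

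Hoxc 31 (102830821 to 102831855) reached the highest fold of the shared regions, 8.50 in MLX-DN replicate 2, beside 5.63 and 3.64 in the other two MLX-DN libraries and 4.28, 5.06 and 3.47 in MLX-WT. The groups overlapped. Its 6 summits fell within 63 bp. Hoxc 30 lay just below it (102829868 to 102830609), with folds of 3.54, 5.24 and 2.26 against 2.99, 3.82 and 3.36.

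Hoxc 25 (102812111 to 102812896) was the shared region whose folds did not overlap between the groups, 4.62, 5.15 and 5.77 in MLX-DN against 3.34, 3.55 and 3.75 in MLX-WT. It was singled out after its values were seen. With 3 libraries against 3, a single region cannot go below p = 0.10 in the exact permutation test. How often such an order occurs among the 3107 regions of the genome listed by all 6 libraries was not counted. Hoxc 22 (102807283 to 102808558) stood out for the spread within 1 group, with folds of 1.97, 5.32 and 5.10 in MLX-WT and 4.81, 4.51 and 3.29 in MLX-DN. The low value was that of MLX-WT replicate 1, at the 1.7 percentile of its list.

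Hoxc 14, 16 and 17 were neighbours within the most covered 10 kb. Hoxc 14 (102792878 to 102794790) had folds of 3.29, 3.98 and 4.55 against 3.97, 3.23 and 2.67, with summits spread over 1217 bp. Hoxc 16 (102795305 to 102796966) had 3.33, 5.11 and 3.56 against 2.82, 2.80 and 3.92. Hoxc 17 (102797320 to 102798537) had 2.27, 4.66 and 3.69 against 2.91, 2.58 and 4.06. In each of these 3 regions the groups overlapped.

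Hoxc 9 (102784847 to 102785785) had folds of 3.46, 4.12 and 3.27 in MLX-DN against 3.27, 4.10 and 4.91 in MLX-WT. The widest Hox region was Hoxc 8 (102777863 to 102780652, 2790 bp), which all MLX-DN libraries listed, at folds of 3.06, 6.24 and 4.96, and MLX-WT replicates 2 and 3, at 3.92 and 4.14. MLX-WT replicate 1 did not list it.

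Over the 9 shared Hoxc regions, mean fold was 4.39 ± 0.758 in MLX-DN against 3.71 ± 0.428 in MLX-WT (n = 3, SD; exact permutation p = 0.30). Summit reads divided by depth were 14.2 ± 0.685 and 13 ± 0.689 (exact permutation p = 0.20). Both measures overlapped between the groups. Over all 3107 regions of this kind in the genome, the same read measure was 15.6 ± 0.322 and 12.1 ± 0.350 (exact permutation p = 0.10), a ratio of 1.29 against 1.09 in Hoxc. On the rest of chromosome 15 the ratio was 1.06, close to that of Hoxc.

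**Figure D5:**
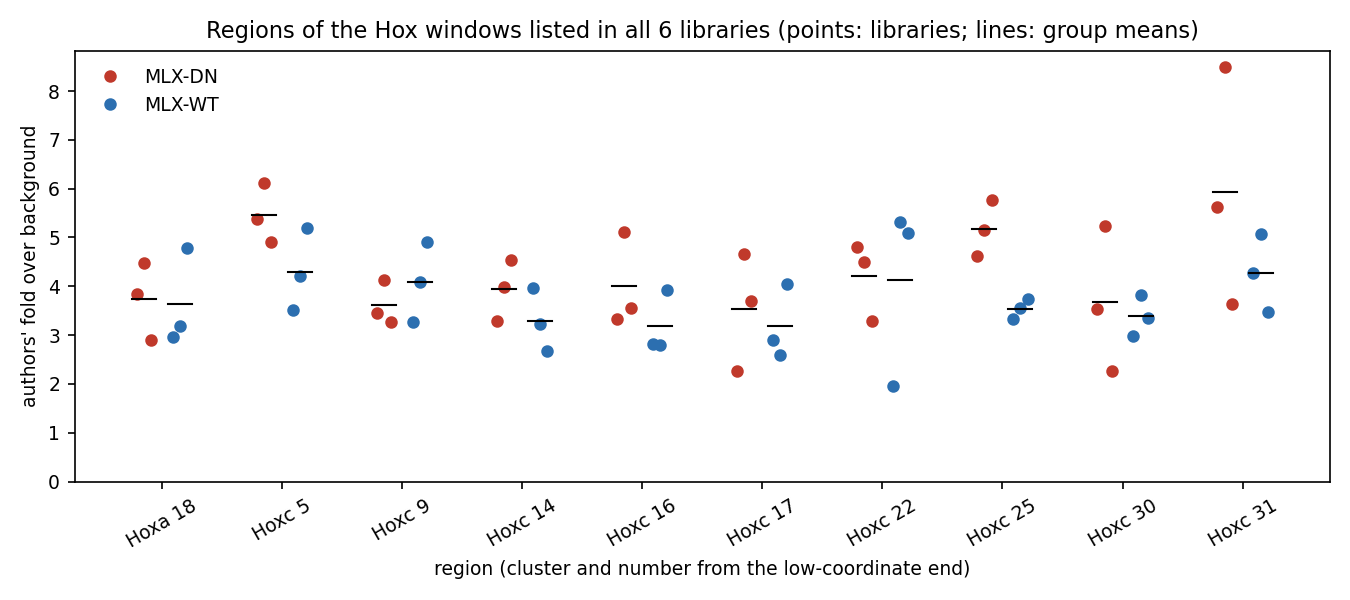
The authors' fold over background, in each library, for the 10 Hox regions listed by all 6 libraries; points are libraries and black lines group means. The groups overlap in 9 regions, and at Hoxc 25 all MLX-DN points lie above all MLX-WT points. The share of such regions over the genome was not counted.

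The region that MLX-WT libraries alone listed in all 3 replicates was Hoxc 1 (102751603 to 102752143), the first region of the window. Its folds were 2.37, 3.74 and 3.04, at the 6.21, 68.1 and 42.3 percentiles of the lists. It is the region behind the 10 to 20 kb bin above, and it was weak in MLX-WT replicate 1.

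The regions that MLX-DN libraries alone listed in all 3 replicates were Hoxa 7 and Hoxa 14. Hoxa 7 (chromosome 6 from 52167480 to 52169088) was the widest Hoxa region, at 1609 bp, with folds of 4.83, 3.73 and 4.21. Hoxa 14 (52176747 to 52177546) had folds of 3.06, 4.81 and 3.69. The percentiles in the lists were 84.69, 49.58 and 71.71 for Hoxa 7, and 14.03, 61.83 and 60.42 for Hoxa 14. Both regions lie in the 70 to 90 kb stretch where the groups separated. Hoxa 7 begins just above Hoxa 6 (52166801 to 52167378), which MLX-WT replicate 2 listed at a fold of 4.36. The MLX-DN-only status of Hoxa 7 thus depends on how peaks were merged into regions. With peaks within 500 bp joined, 1 Hox region kept this status, and at equal list length 0 did.

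The region of Hoxa shared by all 6 libraries was Hoxa 18 (52183728 to 52185203), with folds of 3.84, 4.47 and 2.89 in MLX-DN against 2.95, 3.19 and 4.78 in MLX-WT. The groups overlapped. By the lowest percentile among the libraries that listed a region, the top of Hoxa was Hoxa 3 (52163621 to 52164007), which MLX-DN replicate 2 alone listed, at a fold of 6.53 and the 90.2 percentile of that list. A strong rank there was thus not repeated in another library.

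Within a library, Hoxc peaks were of ordinary strength. Their median fold was 3.48, 3.98 and 3.32 in MLX-DN against 3.00, 3.64 and 3.41 in MLX-WT, against medians of 3.76, 3.97 and 3.69 and 3.74, 3.98 and 3.76 for the whole lists. The median rank of Hoxa peaks lay between the 49.4 and the 52.4 percentile in MLX-DN and at the 17.3, 44.6 and 53.3 percentiles in MLX-WT. Hoxa and Hoxc were thus marked by peaks of middling rank close together, except Hoxa in MLX-WT replicate 1, which listed only 2 peaks there.

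Agreement between libraries was measured as the base pairs covered in both lists of a pair divided by those covered in either (Jaccard index). In Hoxc it averaged 0.447 ± 0.0526 over the 3 pairs within MLX-DN, 0.335 ± 0.0479 over the 3 pairs within MLX-WT and 0.352 ± 0.105 over the 9 pairs between groups (SD). In Hoxa the averages were 0.339 ± 0.0372, 0.174 ± 0.136 and 0.193 ± 0.128. Pairs share libraries and list length enters the index, so these are descriptions. Of 28790 bp covered in Hoxc by any library, 16451 were covered in both groups, 9238 in MLX-DN only and 3101 in MLX-WT only, and of 15668 bp in Hoxa, 6843, 7478 and 1347.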

How the data were processed

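H4ac ChIP-seq peak lists of 6 libraries (3 MLX-DN, 3 MLX-WT) were used, grouped and numbered by sample title. The submitters' processing notes name MACS2 2.0.9, BWA 0.5.9-r26, SAMtools, Picard 1.65, CASAVA, R 2.14.0 and the mm9 build, with no roles. Caller settings and the control behind each list are not stated. The authors deposited 1 list per library, so peaks were called per sample. Each deposited peak has a score, a fold over background (a ratio), and the −log10 of its p-value and q-value; these are the authors' own values and were used only to describe peaks, or to rank and filter them inside their own list.

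Whole ChIP reads and control background were recovered from fold and p (100.0% of peaks whole, within 0.001 of the −log10 p), which gave the depth. Absolute read totals are unknown. Calculations used python 3.11.15, numpy 2.4.6, pandas 2.3.3, scipy 1.17.1 and matplotlib 3.10.9, and the recovery and the tests were checked on simulated data. Peaks overlapping a window by 1 bp were members. Counts of peaks and covered length were tested as log2 values and shares untransformed, by exact permutation over 20 assignments, two-sided, with Benjamini-Hochberg adjustment over the 4 clusters. A pseudocount (0.5 peaks, 250 bp) entered only where a library was at 0. Alternatives were a stricter q, equal list length, equal depth, shortened windows, joined peaks, a minimum cover and leaving out each library.

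Regions named were those listed by all 6 libraries, those listed by all 3 of 1 group and none of the other, and, per cluster, the widest and the one with the highest lowest percentile of −log10 q. The members and lists were chosen with earlier results of these data known. The parts of the plan that needed an mm9 annotation (peaks by gene, myoblast markers) were not run.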

Additional observations from a re-analysis of the deposited data

How the results depend on the processing

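The exact test of 3 libraries against 3 was limited to p = 0.10, and H4ac below the listing threshold is not seen. That threshold was 12 to 14 reads per 250 bp at the genome-wide background and higher where the background was higher. The lowest count listed in a library was 13 to 16 reads. With each list shortened to 5385 peaks, the log2 difference turned to -0.41 for Hox peaks, -0.74 for Hoxc peaks and -0.061 for Hoxc covered base pairs, and the Hoxa share of covered base pairs to -0.00752 percentage points of the list and -0.110 of chromosome 6. Leaving out 1 library, these last values ranged from -0.0140 to 0.0190 and from -0.181 to 0.458, both lowest without MLX-WT replicate 1. None of these values or those in the report between groups passed 0.05. With a −log10 q of at least 5, differences in covered base pairs per 100 kb were 3519 for Hoxa minus Hoxb and Hoxa minus Hoxd, -3090 for Hoxa minus Hoxc, -6610 for Hoxb minus Hoxc and 6610 for Hoxc minus Hoxd, with an exact adjusted p of 0.0625 for Hoxa minus Hoxc. Leaving out 1 library, they ranged from 3804 to 5327 for Hoxa minus Hoxb and Hoxa minus Hoxd, -4565 to -4014 for Hoxa minus Hoxc, -9892 to -7818 for Hoxb minus Hoxc and 7818 to 9892 for Hoxc minus Hoxd, with an exact adjusted p of 0.075 for Hoxa minus Hoxc that 5 libraries cannot improve on. Differences from Hoxb and Hoxd, at 0, have a fixed sign, and their p-values enter only the adjustment over 6 pairs. Regions listed by all libraries numbered 10 (15.6%, genome 9.74%), then 4 at the stricter q (7.55%, genome 8.91%), 4 at equal list length (11.4%, genome 12.1%), 1 when peaks had to cover 50% of a region (1.56%, genome 3.47%), and 10 to 15 leaving out 1 library. Regions in the 3 MLX-DN lists and absent from MLX-WT numbered 2, then 0 at equal list length, 1 with peaks within 500 bp joined, and 2 to 8 leaving out 1 library. Regions of the reverse pattern numbered 1, then 0 at the stricter q and 1 to 2 leaving out 1 library. The cause of these shifts was not tested, beyond the fewer peaks or libraries each setting keeps. Correlations of same-numbered deviations were -0.0593, -0.0596 and 0.000683 over 31891 regions. With 3 libraries per group they cannot settle whether replicate numbers pair the samples. With the replicate block the log2 difference in Hox peaks was 0.73 (exact sign-flip p = 0.25, the smallest 3 pairs allow).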
